A study of Mus musculus with 72 samples.

Results

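Among 2350 single Pet1 neurons of the mouse dorsal raphe that were profiled with 10X Genomics 3' chemistry, 110 cells (4.68%) were chosen. The number 110 was set in advance, so this share does not estimate how common such cells are. The chosen cells are the Nfib Nppc Bmp3 low-Tph2 Pet1 neurons, called members here. They are the cells with the highest mean z score over 7 genes (Kctd8, Nppc, Bmp3, Hs3st2, Nptx2, Nfib and Sulf2), after each cell was scaled to 10000 counts, log-transformed and z-scored gene by gene. The levels of these genes, and every other gene of the same cells, therefore describe the members and test nothing. The members were compared with the other 2240 cells and divided at 500 CPM of Tph2, where CPM is the UMIs of a gene per 1000000 UMIs summed over the cells of a group.

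The table pools 2 samples. In run 1 the cells were Pet1::Flpe+/-; hM3Dq+/+ (mean age 65.5 days), so that the Pet1-driven Flpe recombinase alone set the label, and in run 2 they were En1::cre+/-; Pet1::Flpe+/-; RC::FrePe+/- (mean age 59 days), labelled where both recombinases had acted. Both covered the full dorsal raphe, tissue of several mice was pooled, and fluorescent cells were sorted on a microfluidic chip. A cell was labelled by past as well as present activity of the Pet1 (Fev) gene, and the authors kept only cells with Fev transcripts and without clear glial transcripts. The barcodes end in 1 for 869 cells and in 2 for 1481 cells, no barcode was shared between these sets, and no label says which ending is which run, so the table is 1 sample and no test between cells was made. A second table holds 70 cells that were picked by hand from 8 groups of mice and dorsal raphe subdomains, aged 62 to 119 days and carrying Pet1::Flpe, RC::FrePe and a cre driver (Sert::cre, P2ry1::cre, Npy2r::cre or Crh::cre).

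Serotonin neurons hydroxylate tryptophan with Tph2, with tetrahydrobiopterin made from GTP by Gch1 as cofactor, and decarboxylate the product with Ddc. Serotonin is loaded into vesicles by Slc18a2 (VMAT2), taken back up by Slc6a4 (SERT) and broken down by the monoamine oxidases. The transcription factor Fev (Pet1), with Gata2, Gata3, Lmx1b and En1, directs this programme, and some dorsal raphe neurons also carry Slc17a8 (VGLUT3), which fills vesicles with glutamate. The genes that chose the members act in several other systems. Nppc encodes C-type natriuretic peptide, which signals through the guanylyl cyclase Npr2. Bmp3 is a secreted member of the bone morphogenetic protein family, and Nfib a nuclear factor I transcription factor. Hs3st2 and Sulf2 add and remove sulfate groups on heparan sulfate, Nptx2 is a secreted pentraxin that clusters AMPA receptors, and Kctd8 is an auxiliary subunit of the GABA-B receptor.

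The upstream sequences of 2 genes that chose the members and of 2 serotonin genes are shown for the motifs of factors that were measured in these cells. They are the 250 bases before the RefSeq start site in GRCm38.p6, 5′ to 3′ on the strand of the gene, with capitals marking a match to a nuclear factor I half-site (TTGGCA) or a GATA motif (AGATAA) on either strand. The Nppc window is chr1:86670574-86670823 on the minus strand and that of Sulf2 is chr2:166155684-166155933 on the minus strand. The Tph2 window is chr10:115185023-115185272 and the Fev window chr1:74885409-74885658, both on the minus strand.
Nppc: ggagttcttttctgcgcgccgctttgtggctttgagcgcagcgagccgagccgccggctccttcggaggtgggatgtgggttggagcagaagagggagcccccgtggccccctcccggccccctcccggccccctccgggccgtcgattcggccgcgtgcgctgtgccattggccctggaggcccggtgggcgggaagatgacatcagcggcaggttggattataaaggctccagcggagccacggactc
Sulf2: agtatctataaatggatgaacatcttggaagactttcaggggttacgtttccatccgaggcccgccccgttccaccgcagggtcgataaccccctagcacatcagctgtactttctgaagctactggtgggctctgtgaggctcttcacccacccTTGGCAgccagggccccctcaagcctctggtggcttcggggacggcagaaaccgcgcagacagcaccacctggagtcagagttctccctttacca
Tph2: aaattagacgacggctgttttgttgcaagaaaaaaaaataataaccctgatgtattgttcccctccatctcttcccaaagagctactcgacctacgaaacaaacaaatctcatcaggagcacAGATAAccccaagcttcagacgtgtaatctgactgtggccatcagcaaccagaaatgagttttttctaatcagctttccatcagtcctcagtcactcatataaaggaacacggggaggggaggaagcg
Fev: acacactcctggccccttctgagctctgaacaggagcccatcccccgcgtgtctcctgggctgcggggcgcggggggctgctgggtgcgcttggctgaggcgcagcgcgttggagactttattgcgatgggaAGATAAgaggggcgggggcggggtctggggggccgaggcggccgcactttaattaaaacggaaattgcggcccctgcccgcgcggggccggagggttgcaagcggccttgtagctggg
The half-site in Sulf2 lies 95 bases before the first of 2 starts listed for this gene, and the window of the other, chr2:166155286-166155535, had no match to either motif. In the other windows shown, the GATA motifs lie 128 bases before the start of Tph2 and 118 bases before that of Fev. Of 32851 windows of this length over 27025 genes, 12.3% hold TTGGCA and 9.99% hold AGATAA. No match to either short motif was found in the windows of Nppc, Hs3st2, Kctd8 or Slc6a4, and such a match or its absence says only which letters are there. The windows of Bmp3, Nptx2 and Nfib were not used here.

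The score of the members ran from 1.38 to 5.75 with a median of 2.92. The last member had a score of 1.38 with 113 CPM of Tph2, and the first cell outside had 1.33 with 1405 CPM, so the limit falls on a continuous range. All 7 genes had a UMI in 18 members, 6 genes in 38, 5 in 24, 4 in 21, 3 in 8 and 2 in 1 member. Among the other cells 1 cell had 6 of the genes and none had 7. Barcode set 1 held 50 members (5.75% of its cells, 4.30 to 7.52%) and set 2 held 60 (4.05%, 3.11 to 5.18%). All intervals here are exact 95% intervals and cover counting error only.

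Kctd8 was the marker present in most members, with a UMI in 109 of 110 cells and 290 CPM, against 8.04 CPM in the other cells. Sulf2 was found in 93 members, Nfib in 91, Nptx2 in 88 and Hs3st2 in 82, at 83.2, 133, 139 and 65.6 CPM, against 4.74, 2.36, 2.42 and 1.58 CPM in the other cells. Nppc and Bmp3 were patchier. Nppc had a UMI in 64 members (54.0 against 0.824 CPM) and Bmp3 in 57 (46.8 against 0.106 CPM), and 3 or more UMIs in only 26 and 23 of them. Bmp3 was the most restricted of the 7, with UMIs in 12 of 2240 other cells (0.536%). When every cell was thinned to 20000 UMIs, which left 100 members, Kctd8 was still found in 98 of them and in 9.88% of other cells, Nppc in 48 and 2.05%, and Bmp3 in 43 and 0.273%. The log2 ratios of Nptx2 were 7.00 in barcode set 1 and 5.73 in set 2, and those of the other markers were likewise 3.73 or more in both sets.

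**Figure D1:**
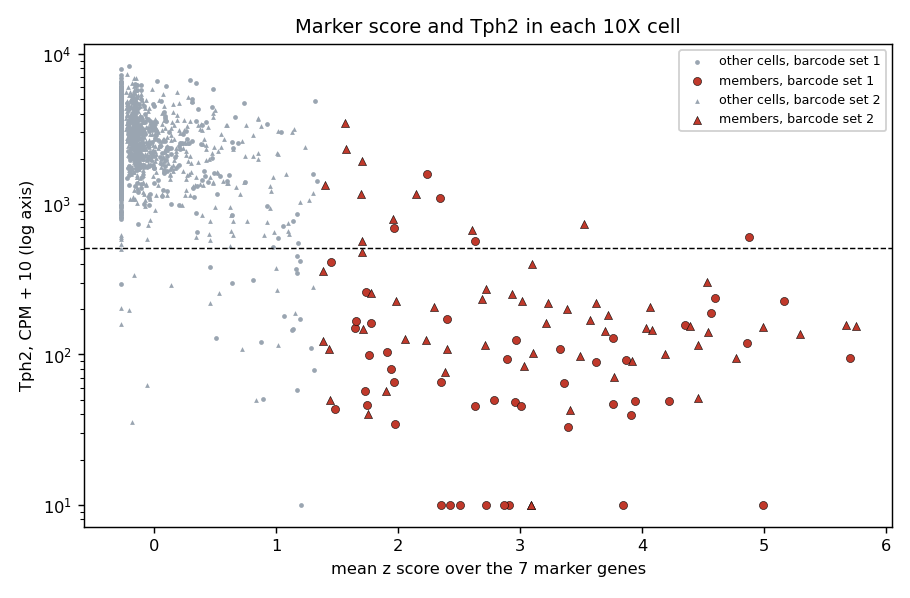
Mean z score over the 7 marker genes (x axis) against Tph2 (y axis, CPM + 10, log axis) for each of the 2350 cells, with members in red and the barcode sets as circles and triangles. The dashed line is 500 CPM of Tph2; 95 of 110 members lie below it, in both barcode sets, and most other cells lie above it at scores near 0.

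The members were shallower than the other cells. Their median was 27313.5 UMIs and 6236 genes per cell, against 60628 UMIs and 7761 genes. The mitochondrial share was 4.06% against 6.54% and the ribosomal protein share 7.80% against 10.2%, both as medians. The median log2 ratio over all 11309 genes with at least 300 UMIs was 0.17, so a gene with a ratio of 0 lies slightly under the typical gene. Of these genes 794 (7.02%) were at least 2-fold higher in members and 602 (5.32%) at least 2-fold lower. These shares are the background for the gene lists below. Those lists were chosen with earlier results of these data known, so a share past the background tests nothing. The minimum of 300 UMIs includes those of the members, so some genes reach it only through them. Of the 794 genes 789 were higher in both barcode sets, and of the 602 genes 593 were lower in both, while 539 of the 794 were 2-fold higher, and 400 of the 602 2-fold lower, in each set. Centring the ratios on their median turns the counts to 540 higher and 776 lower.

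Markers of other cells and of handling were as follows. Summed over its list, the 6 oligodendrocyte genes in the table stood at 75.7 CPM in members and 32.2 CPM in other cells, from 0 to 862 CPM per member, with Mbp (52.8 against 21.3 CPM) past 2-fold and Pdgfra at 0 UMIs. Of 5 astrocyte genes Gfap and Slc1a3 had no UMI in members, and the list summed to 13.5 against 21.6 CPM. Microglial, vessel and dopamine neuron lists each summed to 0.628 CPM in members, and Th, Cx3cr1 and Cldn5 were at 0. Immediate early and dissociation genes were higher, with 7 of 11 tested past 2-fold and 0 below (summed 842 against 283 CPM, 39.9 to 2977 CPM per member). Egr1, Junb and Fos had log2 ratios of 2.96, 2.29 and 1.43. Against the 337 other cells under 40000 UMIs alone, a comparison chosen after seeing the data, Mbp and Fos were at 0.73 and 0.87, within 2-fold. That comparison, and ratios taken after every cell was thinned to 20000 UMIs and 110 members were chosen again from the thinned cells, are given below where they end a call. The second changes both depth and membership (96 of the 110 cells were the same), so the part of each cannot be told apart in it. The part of glial transcripts and early genes in the results was not tested.

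Most pan-neuronal genes were within 2-fold, and their summed level was lower in members (7276 against 9044 CPM). Of 16 genes of vesicle release and neuronal identity 0 were 2-fold higher and 1 was lower, the syntaxin Stx1a (24.8 against 52.5 CPM), which was within 2-fold against the shallower cells (-0.90). Snap25 was found in all 110 members, with log2 ratios of -0.15 for Snap25, 0.00 for the splicing factor Rbfox3 and 0.21 for the microtubule protein Map2.

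Tph2 was strongly lower in the members. It stood at 391 CPM (370 to 414) against 2899 CPM (2889 to 2908) in the remaining 2240 cells. The log2 ratio was -2.89 (-2.97 to -2.81), with -3.77 in barcode set 1 and -2.46 in set 2. Per cell the members ran from 0 to 3440 CPM with a median of 116, and the other cells from 0 to 8280 with a median of 2647, so the ranges overlap although most cells of either kind lie apart. Under 500 CPM were 95 members (86.4%, 78.5 to 92.2%), 45 of 50 in set 1 and 50 of 60 in set 2, and 36 other cells (1.61%, 1.13 to 2.22%). The members nearest the limit had 470 and 555 CPM. There were 10 members with no Tph2 UMI, against 1 other cell. Every cell in the table was kept for its Fev and nearly all carry Tph2, so the level that free RNA adds to a cell without Tph2 could not be measured, and the low values of Tph2 in the 95 cells are not read as expression.

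**Figure D2:**
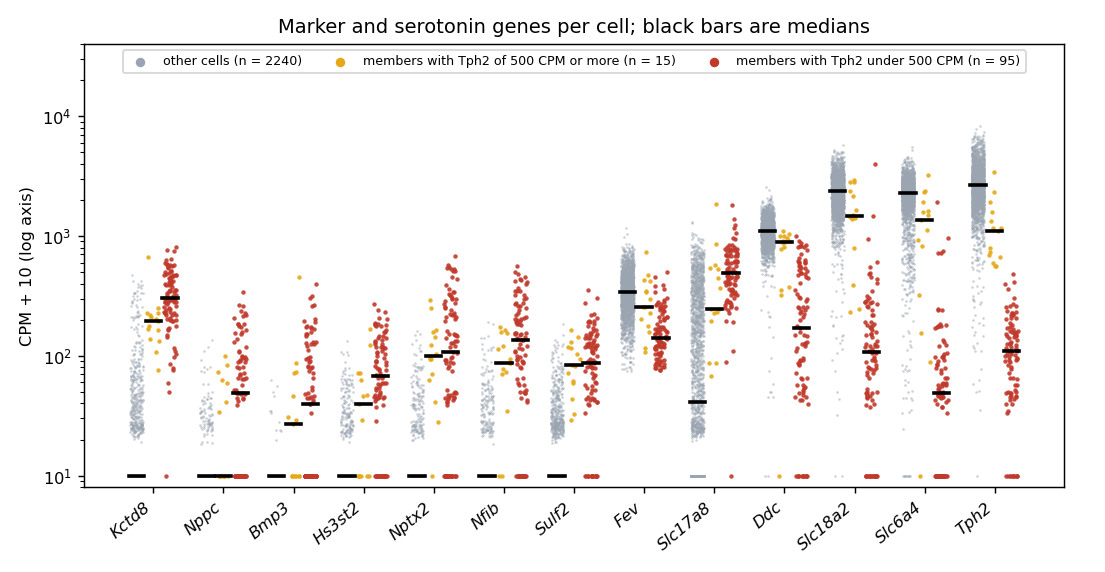
Level of the 7 marker genes and 6 serotonin and transmitter genes in each cell (CPM + 10, log axis), for the 2240 other cells (grey), the 15 members at or over 500 CPM of Tph2 (yellow) and the 95 members under it (red), with black bars for medians. Tph2 splits the members by construction, while Slc6a4 and Slc18a2 are also low in the red cells, and Slc17a8 is higher in members than in most other cells.

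Most of the other serotonin synthesis genes were lower in members, to different degrees. Of 9 tested genes of synthesis and tetrahydrobiopterin supply, 6 were 2-fold lower, 0 higher, and the list median was -1.03, against 5.32% of all genes lower. Gch1, which starts cofactor synthesis, was at 109 against 495 CPM (log2 ratio -2.18, -2.33 to -2.03), and Ddc at 387 against 1115 CPM (-1.53, -1.61 to -1.45). Gchfr, the feedback regulator of Gch1, and Pcbd1, which recycles the cofactor, lay near the limit, at -1.01 and -1.03, and within 2-fold against the shallower cells (-0.74 and -0.85). Pts, Qdpr and Spr, further cofactor enzymes, stayed within 2-fold at -0.89, -0.55 and 0.06.

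The monoamine handling genes were divided. Of 7 tested, 4 were lower and 0 higher. Slc6a4 had a log2 ratio of -2.52 (-2.60 to -2.44), Slc18a2 -2.21, the organic cation transporter Slc22a3 -3.45 and Maob -1.45. Maoa, which prefers serotonin as a substrate, was at 121 against 115 CPM (0.08, -0.07 to 0.23), the monoamine transporter Slc29a4 at -0.36, and the aldehyde dehydrogenase Aldh2 at 0.95. In the 95 members with low Tph2 the level was 4.16% of that in other cells for Tph2, by which these cells were chosen, 4.98% for Slc6a4, 4.52% for Slc22a3, 4.34% for the intermediate filament gene Prph and 8.72% for Slc18a2, but 25.1% for Ddc, 20.5% for Maob, 40.2% for Gchfr and 46.2% for Fev.

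Identity transcription factors stayed mostly within 2-fold. Of 11 tested, 0 were 2-fold lower and 2 were higher, the homeobox gene En2 (1.13) and the zinc finger gene Insm1 (3.03). En2 was under 2-fold when ratios were centred on the median gene (0.96). Fev itself was at 185 CPM (170 to 200.2) against 339 CPM (336 to 342), a ratio of -0.88, and Gata2 at -0.62. Gata3 had -0.09, Lmx1b -0.20 and En1 0.12. In the low-Tph2 members the levels of En1 and Gata3 were 97.6% and 87.8% of those in other cells, and those of Fev and Gata2 were 46.2% and 48.6%. All 110 members held Fev UMIs, as the authors had removed cells with low Fev.

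**Figure D3:**
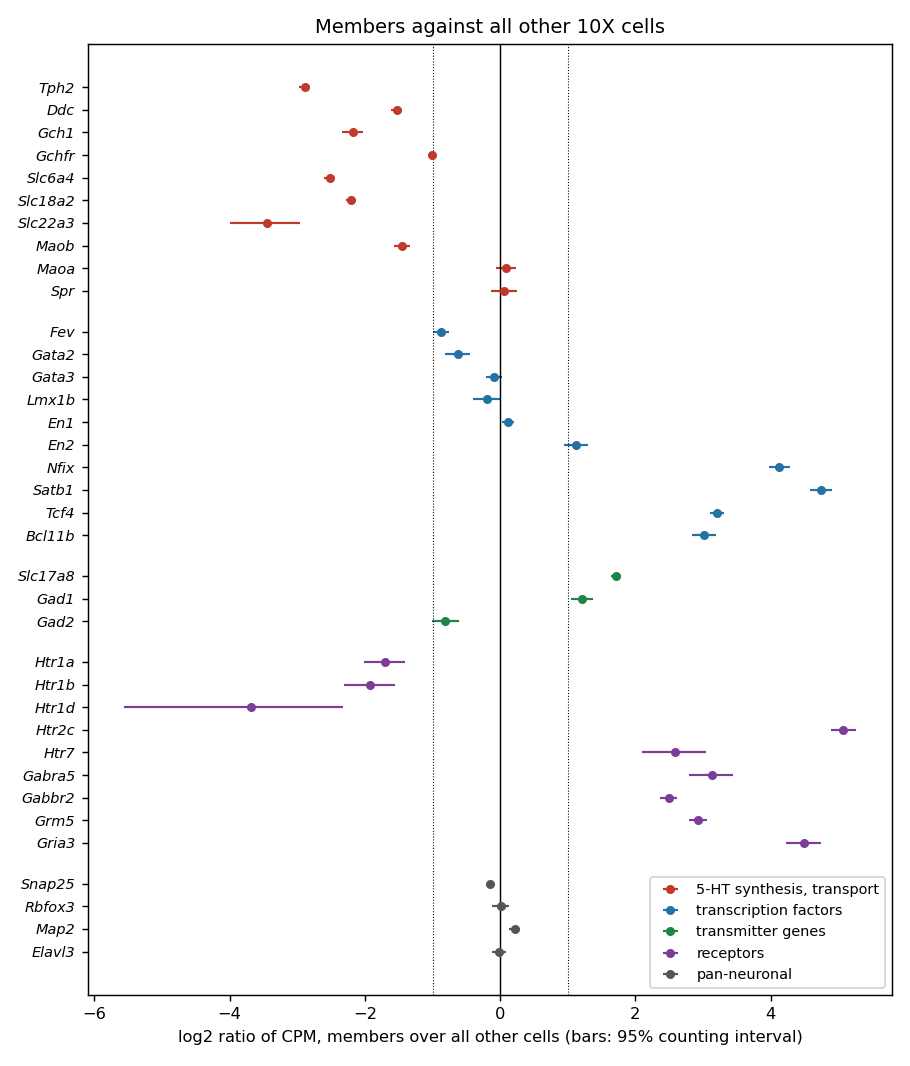
Log2 ratio of CPM in the 110 members over the 2240 other cells for named genes by role, with 95% counting intervals; dotted lines are 2-fold. Genes of serotonin synthesis and transport lie left of zero except Maoa and Spr, Gata3, Lmx1b and En1 lie near zero, and the glutamate, GABA and Htr2c receptor genes shown lie to the right.

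Slc17a8 was higher in members. It was found in 109 of 110 members at 494 CPM (470 to 519), against 1384 of 2240 other cells at 150 CPM (log2 ratio 1.72, 1.64 to 1.79), and the ratio was 1.89 in set 1 and 1.61 in set 2. After thinning it was found in 100% of the 100 members left and 51.1% of other cells. Of 7 fast transmitter genes tested, 3 were higher and 0 lower. The GABA-synthesizing enzyme Gad1 was among those higher (107 against 46.4 CPM, 1.21). Gad1 had UMIs in 41 members only, its ratio was 0.81 with members chosen again after thinning and 0.93 in set 2, and Gad2 was at -0.81. The vesicular GABA transporter Slc32a1 was found in 3 members and the glutamate transporter Slc17a6 (VGLUT2) in 1, while Slc6a5 and Chat had no UMI in members.

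Serotonin receptor genes differed in both directions. Of 8 tested, 3 were higher and 3 lower. Htr2c, a Gq-coupled receptor, was at 134 against 3.97 CPM (5.07, 4.89 to 5.26), and was found in 78 members, against 257 other cells. Htr7 and Htr1f were at 2.58 and 1.50, and at 0.97 each against the shallower cells. The Gi-coupled autoreceptors were lower, with log2 ratios of -1.70 for Htr1a, -1.92 for Htr1b and -3.68 (-5.56 to -2.32) for Htr1d, for which members had 4 UMIs.

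Outside the 7 chosen genes, the 15 with the highest ratios were Galr1, Nrgn, Nts, Penk, Tac1, Sst, Htr2c, Calca, Satb1, Ngef, Gria3, Col11a1, Plpp4, Thsd7b and Nfix, of which Galr1, Nrgn and Col11a1 had fewer than 300 UMIs over all cells and are not among the genes counted above. Of the 15, Nrgn, a calmodulin-binding postsynaptic protein, stood at 48.0 against 0.242 CPM (7.63) and Gria3, an AMPA receptor subunit, at 59.7 against 2.66 CPM (4.49). Galr1, a galanin receptor, was the most restricted, with UMIs in 41 members and 3 other cells (33.9 against 0.0227 CPM, log2 ratio 10.55, 8.96 to 12.85). The 15 with the lowest ratios, among genes with at least 100 CPM in the other cells, were Prph (4.08 against 109 CPM, -4.74), Tmem114, Cited1, Slc22a3, Wfdc12, Tph2, Cpne7, Slc10a4, Cplx2, Slc6a4, Tmem255a, Nbl1, Irs4, Slc18a2 and Gch1. Slc10a4 is a vesicular protein of monoamine neurons and Cplx2 a complexin of the release machinery, at -2.54 and -2.52.

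Neuropeptide genes marked the members in subsets of cells. Of 20 tested peptide genes, 7 were higher and 6 lower. Tac1 and Calca, among those higher, reached the minimum of UMIs only through the UMIs of the members. The count of higher genes is therefore set in part by that minimum. Sst (somatostatin) was at 599 against 14.3 CPM, Nts (neurotensin) at 432 against 2.37, Penk (enkephalin) at 133 against 2.35, Tac1 (substance P) at 60.9 against 1.13, Calca (CGRP) at 49.3 against 1.65 and Adcyap1 (PACAP) at 43.7 against 6.21 CPM. Lower were Gal (galanin), Crh and Trh, with 1, 1 and 2 UMIs in members, and Nxph4, Pdyn (dynorphin) and Nmb, with log2 ratios of -3.32, -2.14 and -1.54 (Nmb was at -0.77 with members chosen again after thinning). The group levels rest on few cells. The 10 highest cells held 72.2% of the Sst UMIs and 94.4% of the Nts UMIs of the members, and no gene of this set was in most members.

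With any UMI, Sst was in 47 members and 6.43% of other cells, Penk in 40 and 2.59%, and Tac1 in 32 and 1.12%, although the other cells were deeper. After thinning Sst was in 42 of 100 members and 4.19% of other cells. At 3 UMIs or more, Sst was in 38 members, Penk in 24, Tac1 in 20, Calca in 18 and Nts in 17. None of these 5 genes reached 3 UMIs in 32 members, 1 did in 45, 2 in 27 and 3 in 6. Sst, Nts or Penk was in 55 members, Tac1 or Calca in 29, and both kinds in 6. Penk and Calca were in no member together, and Sst and Tac1 in 1, whereas Sst and Penk shared 12 cells, Nts and Penk 11, and Tac1 and Calca 9. Sst and Nts shared 5 cells, Sst and Calca 3, and Nts and Calca 2. All 18 cells with Calca also had 3 or more UMIs of the chemokine gene Cxcl14 and of the chromatin organizer Satb1, and 16 of 17 cells with Galr1 had Satb1. Htr2c was in 15 of 17 cells with Nts and 20 of 24 with Penk. Over all 110 members Cxcl14 was at that level in 52, Satb1 in 62 and Htr2c in 60. These counts share 1 table and depth, and no test of the overlaps was made.

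**Figure D4:**
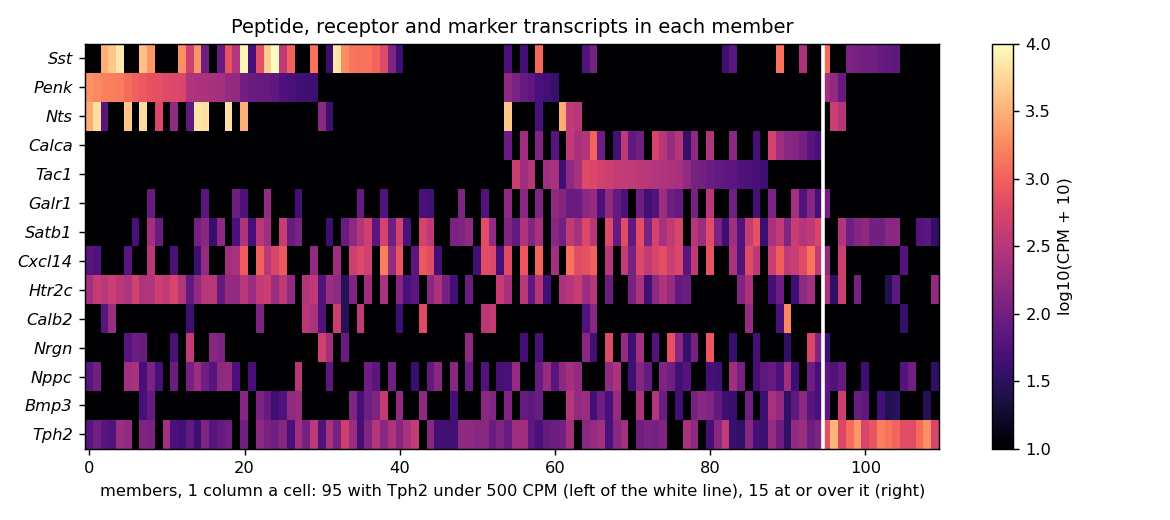
Level of peptide, receptor and marker transcripts (rows, log10 of CPM + 10, colour) in each of the 110 members (columns), with the 95 members under 500 CPM of Tph2 left of the white line. On each side of the line, cells with any Tac1 or Calca UMI were placed to the right. Within these parts columns were ordered by the levels of Penk, Nts, Tac1, Calca and Sst. Penk, Sst and Nts lie mostly in columns to the left of those with Tac1 and Calca, a placement that this order sets in part. The 15 members over the limit at the right have no Tac1 or Calca UMI.

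Genes of the pathways behind the markers were also examined. In the natriuretic pathway 2 of 10 tested genes were higher, the cGMP-dependent kinases Prkg2 (2.60) and Prkg1 (1.47, but 0.95 with members chosen again after thinning and 0.55 against the shallower cells), and 2 lower, the phosphodiesterases Pde2a (65.3 against 203 CPM, -1.64) and Pde5a (3 UMIs in members, -2.37, -4.65 to -0.82). Npr2, the receptor of C-type natriuretic peptide, was at 12.3 against 13.0 CPM (-0.09, -0.59 to 0.37). In the BMP pathway 4 of 21 were higher and 4 lower, with a median of -0.13. Those higher included the antagonist Chrd (2.10), the receptor Acvr2b (1.03, but 0.86 when centred) and the target Id2 (2.46), and those lower were Id1 (-2.77), Smad3 (-1.97), the follistatin-like gene Fstl1 (-1.63) and follistatin (Fst, 0 UMIs in members, and not past 2-fold at the floor of 3 counts against the shallower cells). The antagonist Nog, under the count minimum, was in 26 members (10.7 against 0.763 CPM).

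Heparan sulfate enzymes differed within the family. Of 17 tested, leaving out Hs3st2 and Sulf2, which were used to choose the cells, 1 was higher and 5 lower. The 1 higher was the sulfatase Sulf1 (21.4 against 2.73 CPM, 2.96). Hs3st4, Hs3st1 and Hs3st6, which add the same 3-O sulfate as Hs3st2, were at -3.02, -2.30 and -1.57 (3 UMIs for Hs3st6, -3.85 to -0.01), and the 6-O sulfotransferase Hs6st2 was at 234 against 573 CPM (-1.29). Of 10 core protein genes, the glypicans Gpc5 (1.56) and Gpc6 (1.43) were higher and none was lower, and Gpc5 was at 0.74 against the shallower cells.

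Synaptic receptor genes outside the 7 markers differed in both directions, more of them higher than lower. Of 23 pentraxin and AMPA receptor genes, leaving out Nptx2, which was used to choose the cells, 6 were higher and 2 lower, with Gria3 (4.49), Olfm3 (2.08), Gsg1l (1.72) and the adhesion protein Lrrtm4 (1.68) above, and the auxiliary subunits Cacng5 (-3.27) and Cacng3 (-1.48) below. The pentraxins Nptx1 and Nptxr were within 2-fold (0.22 and -0.59). Of 13 GABA-A subunit genes 4 were higher, among them Gabra5 (3.13) and Gabrb2 (2.23), and Gabre was lower (-1.33, but -0.38 in set 1). Of 7 GABA-B receptor and KCTD genes, leaving out Kctd8, which was used to choose the cells, 1 was higher, Gabbr2 (182 against 32.3 CPM), while Gabbr1, which pairs with Gabbr2, was at 0.17. Of 13 other glutamate receptor genes 4 were higher and 0 lower, among them Grm5 (171 against 22.5 CPM, 2.93) and Grm8 (2.18).

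Transcription factors of subtype identity differed in both directions. Of 32 tested, leaving out Nfib, which was used to choose the cells, 12 were higher and 9 lower. The list includes factors that the study picked because they vary between its groups of these same cells, so its share of differing genes is not comparable with the background of all genes. Nfix (4.13) and Nfia (2.68), the other nuclear factor I genes, were higher, and Nfic was at 0.66. Satb1 (158 against 5.92 CPM, 4.74), the LIM cofactor Ldb2 (3.63), Pou3f2 (3.48), Tcf4 (298 against 32.4 CPM, 3.20), Bcl11b (3.02), Bcl11a (2.70) and Zfp536 (2.67) were also higher. Sox14 had 0 UMIs in members, and Maf was at -2.82, Rorb at -2.73 and Zfhx3 at -1.69.

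Receptor, channel and calcium-binding genes differed in both directions. Of 20 tested G protein-coupled receptors, a list of those the study names for its groups of these same cells, 5 were higher and 6 lower, a share not comparable with the background of all genes. Sstr2 (3.38), the cannabinoid receptor Cnr1 (71.3 against 9.41 CPM, 2.92), Chrm1 (2.74) and Gpr101 (2.29) were higher, but against the shallower cells Gpr101 was at -0.37. The orexin receptors Hcrtr1 (-2.77) and Hcrtr2 (-1.90), Adra2a (-1.80) and Crhr2 (3 UMIs in members, -3.59, -5.87 to -2.04) were lower. Of 39 channel genes 12 were higher and 3 lower, with the potassium channel protein Kcnip4 (3.76), the T-type channel Cacna1g (3.33) and the leak channel Kcnk2 (2.12) highest of those named, and Kcnn3 (-1.73), Scn9a (-1.14) and Kcnq3 (-1.06) lower, the last 2 within 2-fold against the shallower cells (-0.99 and -0.90). Of 11 calcium-binding genes 2 were higher and 4 lower, among them Necab1 (2.68), Calb1 (-2.13, but -0.66 with the 150 highest-scoring cells) and Necab2 (-1.84).

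Guidance and adhesion genes differed in both directions. Of 52 tested, 23 were higher (44.2%) and 6 lower, with a median of 0.90. The share higher over all genes was 7.02%. The list was chosen with earlier results of these data known, so the 2 shares are not comparable. Ephb1 was at 67.8 against 5.44 CPM (3.64), the neuropilin Nrp1 at 2.84, the cadherin Cdh8 at 2.56 and the synaptic organizer Cbln4 at 434 against 83.9 CPM (2.37). Cbln2 (-2.56), Plxnd1 (-2.12) and Unc5d (-2.02) were lower.

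Within the members the limit of 500 CPM of Tph2 left 95 cells under it and 15 over it, and the comparison of these small groups rests on 15 cells. The 15 were deeper, at a median of 41412 UMIs against 26066. Of 7675 genes with at least 50 UMIs over the members, 349 (4.55%) were 2-fold higher in the low-Tph2 members and 159 (2.07%) lower. Tph2 itself, which sets the groups, was at 121 against 1437 CPM. Slc6a4 (-3.72, -3.91 to -3.53) and Slc18a2 (-3.04, -3.19 to -2.89) were lower with it, as were the receptor tyrosine kinase Ret (-2.95), Amigo2 (-2.92), Slc10a4 (-2.73), Irs4 (-2.71, but -0.67 in set 1), Sncg (-2.57), Sorcs1 (-2.57) and Rgs2 (-2.46). Over the 110 members, Tph2 and Slc6a4 in CPM had a Pearson r of 0.77, Tph2 and Slc18a2 0.77, Tph2 and Gch1 0.59 and Tph2 and Fev 0.45, but Tph2 also had 0.53 with UMIs per cell (0.24 in set 1 and 0.72 in set 2). These values describe cells of 1 table that share depth.

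Several peptide genes had higher summed levels in the 95 cells. Tac1 and Calca had no UMI in the 15 cells with higher Tph2, and the log2 ratios were at least 4.06 and at least 3.76, taken against 3 UMIs over the group. Cxcl14 (3.91), Nts (3.08), Sst (2.90) and Galr1 (3 UMIs in the 15 cells, 3.18, 1.59 to 5.48) were also higher in the 95 cells. The share of cells with Sst was not higher there, with a UMI in 39 of 95 cells and in 8 of 15, and 3 or more UMIs in 30 and 8. With 1 UMI each in the 15 cells, Nrgn had a ratio of 5.30 (2.80 to 10.61) and Calb2 of 5.45 (2.95 to 10.76). With members chosen again after thinning, which put 89 cells under the limit and 21 over it, the ratio of Calb2 was 0.74. Hpca (2.67) and the early gene Junb (2.46) complete the highest 10. Early genes summed to 978 CPM in the 95 cells and 315 CPM in the 15, and 7 of 8 tested were higher in the 95; their part in the result was not tested. All 7 markers had ratios above 0 in the 95 cells, from 0.19 for Sulf2 to 1.55 for Nppc. Sst, Nts or Penk was at 3 UMIs or more in 10 of the 15 cells and in 45 of the 95, and 5 and 27 cells had none of the 5 peptides at that level.

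The 36 other cells under 500 CPM of Tph2 are outside the members because of a lower 7-gene score, so lower levels of those 7 genes follow from the rule. Kctd8 had a UMI in 31 of them and was at 177 CPM, Nfib at 13.9, Satb1 at 12.2 and Bmp3 at 0.816 CPM (1 UMI), against 319, 147, 180 and 51.8 CPM in the low-Tph2 members. Ldb2 had a UMI in 20 of the 36 cells and Cnr1 in 28, against 61 and 83 of 110 members. Summed Slc6a4 and Slc18a2 were at 502 and 789 CPM in the 36 cells, against 113 and 209 CPM in the low-Tph2 members. The medians per cell lay closer together, at 65.8 and 238 CPM in the 36 cells, against 38.4 and 96.8 CPM. Sst (851 CPM in 9 cells), Nts and Penk were found in them, Tac1 and Calca in 1 cell each, and Galr1 in none of 36 cells.

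Members were also set beside 2 groups of 110 non-members chosen in the same way. The first had the highest scores for Pou3f2, Bcl11a and Gad1, and the second for Gpr101, Ecel1 and Cxcl14. Had members been allowed, 36 of them (26 under and 10 over the Tph2 limit) would have been in the top 110 for the first score and 33 (all under it) for the second. Tph2 stood at 2780 CPM in the first group and 1805 CPM in the second, against 391 CPM in members. Slc17a8 was at 52.7 and 125 CPM, against 494 CPM. Gad1, used to choose the first group, was at 261 CPM there and 14.1 CPM in the second.

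Against the Pou3f2 Bcl11a Gad1 cells 7.81% of 11309 genes were 2-fold higher and 5% lower in members. Calca (6.29), Bmp3 (5.63), Cxcl14 (5.58), Prkce (5.16) and Penk (5.02) were among the 10 genes with the highest ratios, and so were 3 genes with 2 or 3 UMIs in that group, Nts (10.42, 8.56 to 13.47), Nrgn (7.25, 5.37 to 10.31) and Nppc (6.83, 5.26 to 9.13). Tac1 and Galr1 had no UMI in that group, and their log2 ratios were at least 7.01 and at least 6.16. Bmp3 and Nppc were used to choose the members, and this group holds no member, so their higher levels follow from the rule. Pou3f2 and Bcl11a, used to choose this group, were as high in members (0.06 and 0.12). The 10 genes lowest in members had 0 to 4 UMIs in members. They were led by Hacd4 (-6.49, -11.80 to -3.99), Sln (-5.94, -11.25 to -3.43) and Gal (-5.93, -11.24 to -3.42), with 1 UMI each in members.

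Against the Gpr101 Ecel1 Cxcl14 cells 5.39% were higher and 3.56% lower. Bmp3 (1 UMI in that group, 7.66, 5.16 to 12.97), Stxbp6 (3 UMIs, 5.74, 4.16 to 8.04), Nfix (5.60), Nfib (5.47), Nrgn (4.89), Nptx2 (4.77), Ephb1 (4.39), Bcl11b (4.18) and Satb1 (4.06) were higher in members, and Galr1, with no UMI in that group, at least 5.61. Bmp3, Nfib and Nptx2 were used to choose the members, and this group holds no member, so their higher levels follow from the rule. Pdyn (-3.91), Calb1 (-3.89), Calb2 (-3.43), Slc22a3 (-3.08), Bdnf (-3.04) and Irs4 (-2.84) were lower in members. Sst (0.89) and Cxcl14 (0.11), the latter used to choose this group, differed less than 2-fold.

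In the 70 manually sorted cells, which the choice of members did not use, no cell was under 500 CPM of Tph2, where CPM is reads per 1000000 reads on genes. The lowest had 2720 CPM and the median was 9526. The limit was set on the 10X UMI counts, where the median over all cells was 2587 CPM, so it is not an equal cut here. The 7 genes had reads in few cells, 0 of them in 38 cells, 1 in 18, 2 in 6, 3 in 4 and 4 in 4, and no cell had more than 4. Sulf2 was in 26 cells, Kctd8 in 11, Nfib in 8, Hs3st2 in 5, Nptx2 in 4, Nppc in 3 and Bmp3 in 1, and Galr1 in none. The highest 7-gene score over these cells, 3.16, was that of cell 10 of the Npy2r::cre caudal group, with 211 CPM of Kctd8, 112 of Hs3st2, 75.7 of Nptx2 and 84.8 of Sulf2, no reads of Nppc, Bmp3 or Nfib, and 3073 CPM of Tph2. Kctd8 was found in 5 of 9 cells of the Npy2r::cre rostral group. Each group is treated as 1 sample here, since the labels name no animal, although ages differ within most groups. The cells were chosen by driver lines and place, so their shares are not shares of the dorsal raphe.

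**Figure D5:**
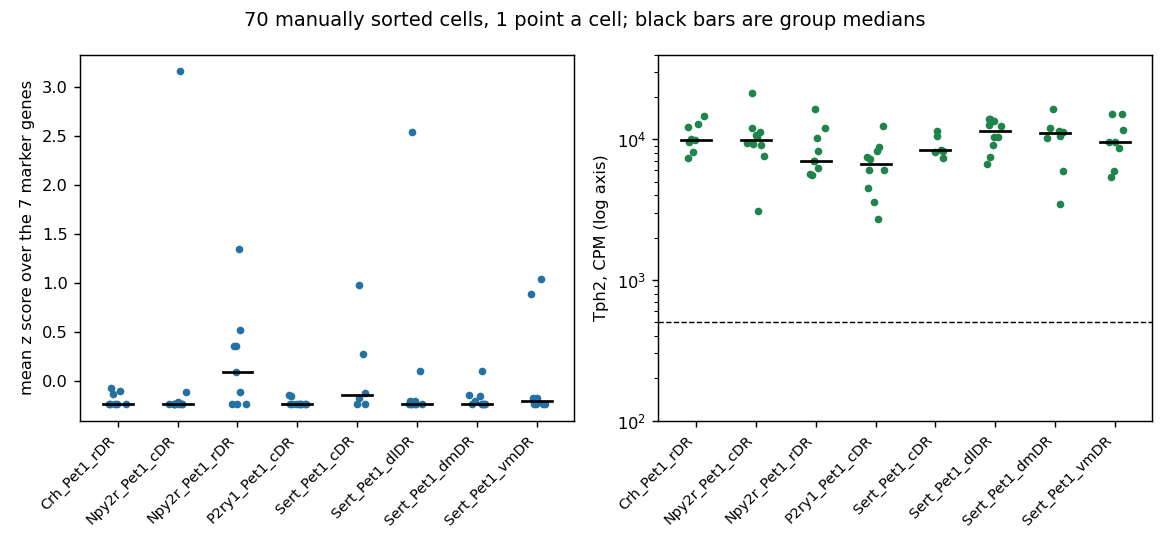
Mean z score over the 7 marker genes (left) and Tph2 (right, CPM, log axis) in each of the 70 manually sorted cells by sorted group, with black bars for medians and a dashed line at 500 CPM. Every cell lies above the line, from 2720 to 21204 CPM, and 2 cells have scores above 2.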

How the data were processed

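The authors mapped reads of both kinds of library to mm10. For the 10X cells they used Cell Ranger 3.0.2, removed rarely detected genes, and removed cells with few genes, glial transcripts, low Fev, a high mitochondrial or low ribosomal share, or outlying totals. They deposited UMI counts of 17231 genes in 2350 cells, not normalized. For the 70 manual cells they deposited read counts per gene from STAR 2.5.4, full-length and not normalized. R 3.5.3 is also named in the submitters' processing notes.

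Members, gene lists and comparisons were chosen with earlier results of these data known. The 10X columns name no animal, so no test was made. CPM of summed UMIs, their ratios and shares were given with exact 95% Poisson, conditional binomial and Clopper-Pearson intervals. Genes needed 300 UMIs over all cells (50 over the members for the contrast by Tph2), and 2-fold was the limit for a count. A ratio against 0 UMIs used 3 counts. Total UMIs were 3184739 in members and 132359220 in other cells. Thinning to 20000 UMIs left out 53 cells, 10 of them members. Doublets were called with Scrublet in scanpy 1.11.5 at an expected rate of 5% in each barcode set, which marked 14 cells (0.596%) and no member.

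Genes named are the 7 markers, examples past 2-fold from 27 fixed lists (521 genes) and genes the study names for its Tph2-low cells, the 15 highest (100 UMIs in members) and 15 lowest (100 CPM in other cells) ratios, and the 10 at either end of the other contrasts (100 UMIs and 20 cells with a UMI). Sex-linked genes were skipped, and a few genes that meet the rule are not reported here, though counts include them. The ranked genes Galr1, Nrgn and Col11a1 and the markers Nppc and Bmp3 are under the 300-UMI minimum. Other named genes within 2-fold, and the list genes Nog, Slc32a1 and Slc17a6, also under it, were added after their values were seen. The ratios were tested on simulated counts. Every changed gene kept its direction, and the intervals held the true value for 89.7 to 98.4% of changed genes by setting. These counts were drawn for whole groups with no differences between cells. They cannot show how the ratios or intervals hold for genes carried by few cells. Alternatives covered the number of members, depth, scaling, barcode sets, doublets, count minimum, genes in the score and Tph2 limit. Python 3.11.15, numpy 2.4.6, pandas 2.3.3, scipy 1.17.1 and matplotlib 3.10.9 were used. Promoter windows came from RefSeq (GRCm38.p6), matched by symbol.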

Additional observations from a re-analysis of the deposited data

Results flagged for a closer look

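Among manually sorted cells, 16 sets of values (the 7-gene score and Tph2 in 8 groups) were examined for a cell far from the others. The limit used marks about 1 in 20 sets of untied, normally distributed values by chance, a rate that was not tested here and need not hold for the score, since 38 of the 70 cells had no reads of the 7 genes. In the Npy2r::cre caudal group cell 10 had a score of 3.16, with the next cell at -0.11. In the Sert::cre dorsolateral group cell 10 had 2.54, with the next at 0.11. In the Npy2r::cre rostral group cell 9 had 1.35, with the next at 0.52, and in the Sert::cre dorsomedial group cell 4 had 0.10, with the next at -0.14. For Tph2, cell 4 of the Npy2r::cre caudal group had 21204 CPM, with the next at 12075 CPM.

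Among the named genes Calb2 had ratios of opposite sign in the barcode sets. Its log2 ratio of members to other cells was 0.60 in set 1 and -1.13 in set 2, and this difference was not tested. The 10 highest cells held 91.2% of the Calb2 UMIs of the members, and 12 members had 3 or more, 4 in set 1 and 8 in set 2.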

How the results depend on the processing

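No log2 ratio of a named gene past 2-fold changed sign, except Gpr101 (-0.37) and Ecel1 (-0.40) against other cells under 40000 UMIs. Of 160 or 161 such ratios, those no longer past 2-fold numbered 3 with the 80 highest-scoring cells and 7 with 150, 7 after thinning and choosing 110 members again (as in all values after thinning here), 2 as a mean over cells, 2 centred, 4 and 7 in barcode sets 1 and 2, and 17 of 142 against the shallower cells, and those named in the report with a changed call include En2, Gad1, Htr7, Htr1f, Prkg1 and Acvr2b. Within members, Calb2 was at 0.74 after thinning and Irs4 at -0.67 in set 1. The log2 ratio of Tph2 (-2.89) was -3.75 with the 80 highest-scoring cells, -2.17 with 150, -3.03 after thinning, -3.36 as a mean over cells, -3.06 centred on the median gene, -3.77 and -2.46 in barcode sets 1 and 2, and -2.46 against the 337 other cells under 40000 UMIs (median 30542), a comparison chosen after seeing the data. The ratio of Slc17a8 (1.72) was 1.79 with 80 cells, 1.48 with 150, 1.79 as a mean, 1.54 centred, 1.89 and 1.61 in the sets and 1.58 against the shallower cells. The share of members under the Tph2 limit (86.4%) was 74.7% with 150 cells and 92.7% at a limit of 1000 CPM. Genes 2-fold higher (794) numbered 437 after thinning, 398 with a minimum of 1000 UMIs and 452 against the shallower cells, and genes lower (602) numbered 355 with that minimum. Genes apart by Tph2 within members (508) numbered 321 in set 2, 1096 and 105 with minimums of 20 and 200 UMIs, and 862 at 1000 CPM. The causes were not tested, but a higher minimum leaves fewer genes. Sets 1 and 2 hold 50 and 60 of the 110 members, and scores without 1 of the 7 genes kept 100 to 106 of them, thinned cells 96. No paired analysis was possible because the numbers in the labels name cells and no test was made. Depth limits genes with few UMIs in members, and 15 cells carry the contrast within members.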
